A study of Homo sapiens with 28 samples.

Results

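H3K27ac, acetylation of lysine 27 on histone H3, marks active promoters and enhancers, and its peaks were compared here between 2 pairs of libraries from SW872, an established human liposarcoma cell line. The 2 lists with CAMTA1 alone in the file name were set against the 2 with EV, the study's abbreviation for empty vector. GEO's labels name the same libraries otherwise. The lists named CAMTA1 are labelled empty vector, and those named EV are labelled TAZ4SA, a form of TAZ that the kinases of the Hippo pathway can no longer phosphorylate. The sets of regions below are identical under both namings, but what they contrast is not. Under the file names it is full-length CAMTA1 against empty vector, and under the labels it is empty vector against TAZ4SA. The names of the peaks inside the files carry the construct of the file name in all 14 lists of the series and that of the label in 0. Which naming is right was not tested. The names CAMTA1-named and EV-named are used for the lists, and for these 4 libraries labels and file names give the same replicate numbers.

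All cells were stably transduced SW872 cells. The labels state 90% confluence for all constructs except CAMTA1, which was taken below confluence. The study's methods for the ChIP give 90% for every construct, CAMTA1 included. If the file names and the labels' growth text both hold, the construct and the density of the cells cannot be told apart. Both namings give 2 libraries a side, described as biological duplicates. These 4 lists are part of 14 from 7 constructs in the same cell line. The other 10 serve below as a readout that was not used to choose the regions. CAMTA1 is a calmodulin-binding transcription activator best known from the nervous system, and its C terminus is the partner of TAZ in the TAZ-CAMTA1 fusion of epithelioid hemangioendothelioma. TAZ is a co-activator that reaches DNA mainly through TEAD factors. The activity of TAZ and its relative YAP is known to fall as cells become confluent, through the Hippo pathway. Acetylated H3K27 is laid down largely by the acetyltransferases CBP and p300, and a stretch of it away from a promoter is usually read as an active enhancer.

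The members were chosen by presence in the lists. From each list the 42841 peaks with the highest −log10 p were kept, which is the length of the shortest list. Kept peaks of the 4 lists that shared at least 1 bp were joined, which gave 54643 merged regions. A set of 969 had a peak in both CAMTA1-named lists and in neither EV-named list, and 5560 had a peak in both EV-named lists and in neither CAMTA1-named list. These are 1.77% and 10.2% of all merged regions. The 2 sets are called CAMTA1-only and EV-only regions, which refers to these 4 truncated lists and to no others.

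The lists were equal in number of peaks but not in extent. The kept peaks covered 52.7 Mb in CAMTA1-named replicate 1 and 61.7 Mb in replicate 2, with median widths of 720 and 858 bp. In the EV-named lists they covered 139 and 113 Mb, with median widths of 2126 and 1665 bp. Both EV-named lists thus lay above both CAMTA1-named lists. The limit was also met at different depths of the lists. The last peak kept had a −log10 p of 3.12 and 4.37 in the CAMTA1-named lists, where 0 and 7014 peaks were dropped. It had 6.86 and 6.49 in the EV-named lists, where 59168 and 56151 peaks were dropped. Peaks tied at the limit in −log10 p were split by fold and, where that was tied too, by position, 187 kept from 49 dropped in CAMTA1-named replicate 2, and 40 from 291 and 17 from 8 in the EV-named lists. The read totals were not used here. The fragments at each summit could be recovered from the fold and p of each peak, and the median kept peak stood on 16 and 19 fragments in the CAMTA1-named lists and on 25 and 19 in the EV-named lists.

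The most frequent pattern of presence was a peak in all 4 lists. Such regions numbered 19205, or 35.1% of all, while 21951 (40.2%) were found in a single list. The regions in all 4 lists made up 90.2% of the 21281 regions with a peak in both CAMTA1-named lists and 67.3% of the 28524 with a peak in both EV-named lists. CAMTA1-only regions made up 4.55% of the first and EV-only regions 19.5% of the second. The EV-only set was 5.74 times as long as the CAMTA1-only set. This ratio was 1.32 and 1.67 without CAMTA1-named replicates 1 and 2, where CAMTA1-only regions numbered 5354 and 4726, and 7.74 and 10.6 without EV-named replicates 1 and 2. A further 7767 regions rested on a single CAMTA1-named list and 14184 on a single EV-named list, so the 21951 regions found in a single list outnumbered both sets together, 6529. With 2 libraries a side the smallest exact two-sided permutation p is 0.333, and no test of these counts was made.

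**Figure D1:**
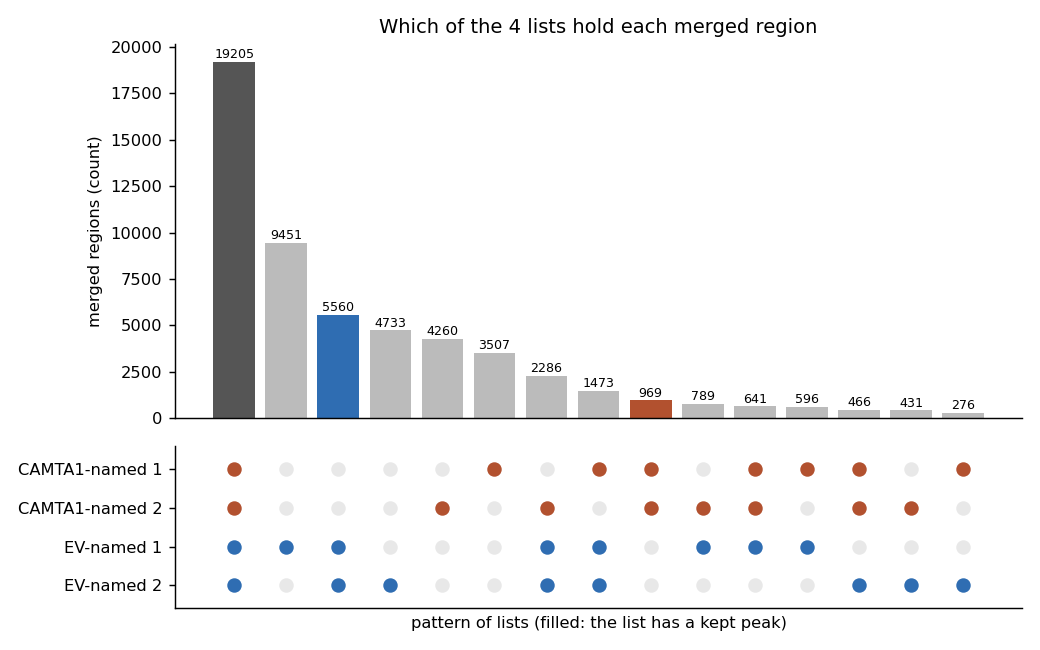
Number of merged regions (y axis, count) for each pattern of presence in the 4 lists, with the lists that hold a kept peak filled in below. The dark bar is the 19205 regions in all 4 lists, the blue bar the 5560 EV-only regions and the red bar the 969 CAMTA1-only regions; grey bars are patterns that do not separate the sides.

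The gap between the sides changed with how a peak was drawn. When each peak was replaced by a window of 500 bp to each side of its summit, 4249 window regions were CAMTA1-only and 5600 EV-only, a ratio of 1.32. Of these 4249 window regions, 3368 or 79.3% overlapped a kept interval of an EV-named list, and 881 did not. The reverse held for 177 of the 5600 EV-only window regions, or 3.16%. Most CAMTA1-named summits that no EV-named summit window reached thus lay in or beside an EV-named called interval. With the 10000 strongest peaks per list the counts were 629 and 957, a ratio of 1.52, and with all peaks they were 377 and 22666, a ratio of 60.1. The EV-only set was the longer in each of the 13 alternatives run, with a ratio between 1.32 and 60.1.

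Many CAMTA1-only regions had a lower-ranked peak in an EV-named list. Of the 969 regions, 476 had a peak below the limit in EV-named replicate 1 (49.1%, 95% Wilson interval 46.0% to 52.3%). In replicate 2 there were 505 (52.1%, 49.0% to 55.2%). The ranks of these lower peaks had a median of 61422 of 102009 and 63747 of 98992, with lower quartiles of 50657 and 51500, so most lay well past the limit. Together 663 regions (68.4%, 65.4% to 71.3%) had such a peak in either list and 318 in both. That left 306 regions (31.6%, 28.7% to 34.6%) with no EV-named peak at any rank. Of the 5560 EV-only regions, 447 (8.04%, 7.35% to 8.78%) had a lower peak in CAMTA1-named replicate 2 and 5113 had none. The CAMTA1-only share was 44.9% where a peak had to cover 50% of a region, 25.7% with windows around summits and 47.3% without CAMTA1-named replicate 2. The EV-only share was 1.59% with 50% covered, 45.2% at a −log10 q of at least 5 and 80.1% with 20000 peaks kept per list. With 10000 kept the shares of the sets were 99.5% and 99.6%. CAMTA1-named replicate 1 had no dropped peaks, so the shares of the 2 sets at the limit of 42841 are not comparable. These intervals, like all others here, cover counting error only.

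Neither set held the strongest acetylation of the cells. No CAMTA1-only and no EV-only region ranked among the 1000 strongest peaks of its own lists. Among CAMTA1-only regions the best rank was 6714 in replicate 1 and 5662 in replicate 2, and the medians were 28425 and 27315. EV-only regions had best ranks of 3741 and 1595 and medians of 25808 and 29214. Regions in all 4 lists had medians between 9871 and 10927. Ranked by the weaker list of the side, 60.6% of the CAMTA1-only and 57.4% of the EV-only regions lay in the last band, from 30001 to 42841, and 5 of each set in the first, up to 10000. These values follow from the choice of the sets and are given as a description.

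**Figure D2:**
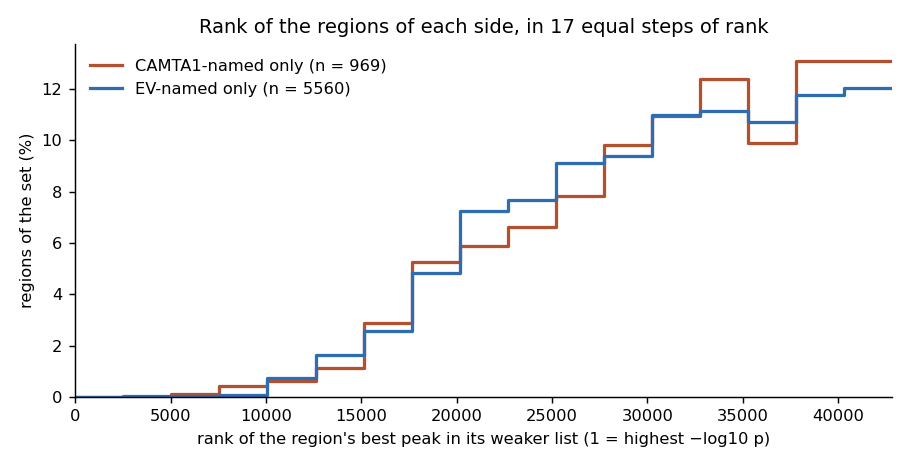
Share of each set (y axis, %) by the rank of the region's best peak in the weaker of the 2 lists (x axis, 1 is the highest −log10 p), in 17 equal steps up to rank 42841. Both sets fill up towards the limit, and 5 regions of each lie within the first 10000 ranks.

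The summits of the sets stood on few fragments. CAMTA1-only regions had a median of 13 fragments in replicate 1 and 15 in replicate 2, with median fold enrichments over the local background of 3.82 and 4.004. The highest were 32 and 45 fragments. EV-only regions had medians of 21 and 15 fragments and folds of 5.66 and 5.37, with the highest at 143 and 121. For comparison, regions in all 4 lists had medians of 26 and 32 fragments in the CAMTA1-named lists and 55 and 35 in the EV-named lists. The best summits of both replicates lay a median of 177 bp apart in CAMTA1-only regions and 208 bp apart in EV-only regions. In regions of all 4 lists the distance was 108 bp between the CAMTA1-named and 89 bp between the EV-named replicates. The ranks of both replicates had a Spearman correlation of 0.369 over the 969 CAMTA1-only regions and 0.499 over the 5560 EV-only regions, against 0.883 and 0.928 over the 19205 shared regions. All of these correlations are across regions within 1 pair of libraries, and those within the sets are over a narrow range of ranks.

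CAMTA1-only regions were narrow. Their median width was 802 bp, with quartiles of 595 and 1135 bp, with 134 under 500 bp and a further 510 under 1000 bp. The widest was 4073 bp, and 44 reached 2000 bp. EV-only regions had a median of 1983 bp, with quartiles of 1300 and 3004 bp, and 2742 of 5560 reached 2000 bp. Of these, 320 reached 5000 bp and the widest was 15761 bp. Regions in all 4 lists had a median of 4274 bp, and all merged regions a median of 1627 bp. Together the CAMTA1-only regions covered 0.912 Mb and the EV-only regions 13.0 Mb.

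Within bands of rank the sets differed in width as their lists did. In the band from rank 10001 to 20000 the median width was 1216 bp for 93 CAMTA1-only and 3086 bp for 522 EV-only regions. From 20001 to 30000 it was 933 bp for 284 and 2345 bp for 1841, and from 30001 to 42841 it was 710 bp for 587 and 1705 bp for 3192. Both sets were narrower than shared regions of the same band. In the last band the shared regions had medians of 3191 bp by their CAMTA1-named rank and 2513 bp by their EV-named rank. A shared region joins peaks of both sides and a region of a set those of its own side only, so merged widths overstate this gap. By single peaks the gap in the last band was smaller. Medians were 467 bp for CAMTA1-only against 544 bp for shared regions, and 1118 bp for EV-only against 1473 bp. The single peaks behind the shared regions differed the same way between the sides, with medians of 2256 bp in the CAMTA1-named and 4402 bp in the EV-named lists in the first band and of 544 and 1473 bp in the last. Regions found in a single list had medians of 359 and 403 bp in the CAMTA1-named and 891 and 629 bp in the EV-named lists. The wider peaks were thus a trait of the EV-named lists at large and not particular to EV-only regions, and equal ranks stand for different −log10 p on the 2 sides. Without EV-named replicate 1, the library with the wider peaks, EV-only regions had a median of 852 bp and CAMTA1-only regions 834 bp. Without EV-named replicate 2 the medians were 1114 and 876 bp, so the gap narrowed when either EV-named library was left out. It widened without either CAMTA1-named library, to 2088 against 428 bp without replicate 1 and 2076 against 378 bp without replicate 2. With summit windows they were 1215 and 1366 bp, the opposite order.

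**Figure D3:**
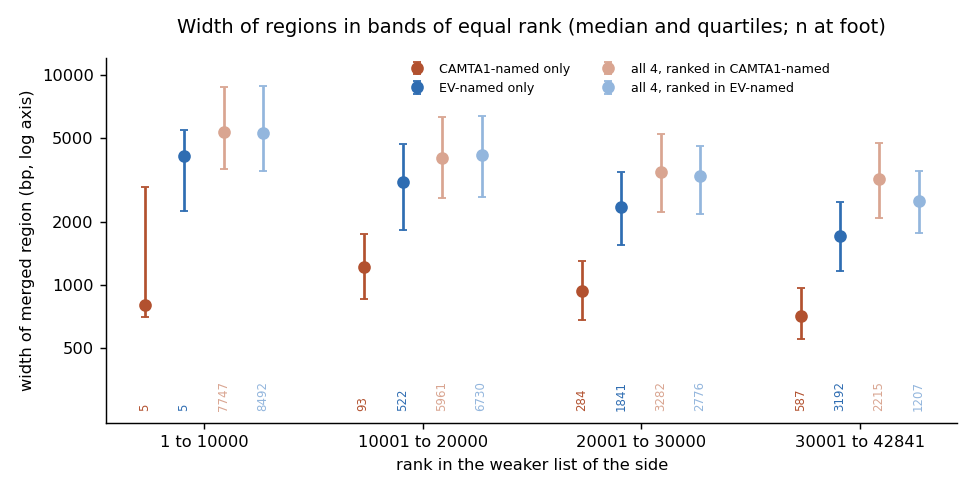
Median width of merged regions with quartiles (y axis, bp, log axis) in 4 bands of rank in the weaker list of a side, for both sets and for the regions in all 4 lists, with the number of regions at the foot. In each band the CAMTA1-only regions are the narrowest, from 710 bp in the last band to 1216 bp in the second.

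The strongest CAMTA1-only region lay on chromosome 9 from 93307135 to 93310057 (GRCh37/hg19, as are all positions here), 2923 bp wide. It ranked 6714 in replicate 1, on 32 fragments and 9.43-fold enrichment, and 5662 in replicate 2, on 45 fragments and 11.2-fold. EV-named replicate 2 had a peak there at rank 66518 and replicate 1 had none. It was present in 9 of the 10 other lists, and the nearest region of all 4 lists was 443368 bp away. It was thus a site far from shared acetylation that was called in most libraries but not among the kept EV-named peaks.

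A close pair followed on chromosome 1, from 30446344 to 30447147 and from 30447473 to 30448178, 325 bp apart and at least 105560 bp from a region of all 4 lists. The first ranked 7610 and 7135 and the second 9884 and 8746. Neither EV-named list had a peak at any rank in either. Each was found in 6 other lists, among them all 4 lists labelled TAZ-CAMTA1 or YAP-TFE3. The region on chromosome 17 from 31716918 to 31717571 likewise had no EV-named peak. Its summits in the 2 replicates were 1 bp apart, at 31717173 and 31717172, with 25 and 39 fragments, and it stood 843110 bp from the nearest shared region.

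On chromosome 6, the region from 9501946 to 9506018 was the widest of the set at 4073 bp, at ranks 8109 and 8367, with a lower EV-named peak at rank 74960 in replicate 1. On chromosome 17 from 47224647 to 47226310, ranks 10521 and 9561 were set against EV-named ranks of 79623 and 66000. On chromosome 1 from 244090506 to 244092155 the ranks were 10874 and 10046, and EV-named replicate 2 had a peak at rank 91631. The region on chromosome 14 from 80855706 to 80857683 was nearest to the limit, with ranks of 8810 and 11122 against EV-named ranks of 51690 and 48560. These 4 regions were present in 5, 7, 8 and 7 of the other lists.

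The widest CAMTA1-only regions after these had a peak in both EV-named lists, in 3 of 4 cases close to the limit in replicate 2. On chromosome 2 from 18479595 to 18483317 and from 36564653 to 36568283, EV-named replicate 2 had peaks at ranks 45012 and 45026 and replicate 1 at 80234 and 65043. On chromosome 13 from 50431010 to 50434729 the EV-named ranks were 59667 and 43054. On chromosome 12 from 10356704 to 10360292 the EV-named ranks were 74096 and 82722. Their widths lay between 3589 and 3723 bp, and they were present in 5 to 9 other lists.

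The strongest EV-only region was a sharp one, on chromosome 12 from 132111079 to 132112333 and 1255 bp wide. It ranked 4442 in replicate 1, on 126 fragments and 14.3-fold enrichment, and 1595 in replicate 2, on 102 fragments and 20.95-fold. The summits, at 132111340 and 132111334, were 6 bp apart. No CAMTA1-named peak was found there at any rank, and of the 10 other lists only replicate 2 labelled TAZ-CAMTA1 had one. It was thus the best-ranked peak of the set in replicate 2, in a place where 1 other list of 10 had a peak.

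The next EV-only regions were broader and were found in other lists. On chromosome 5 from 66645133 to 66650905 the ranks were 3741 and 6782, on 105 and 52 fragments. On chromosome 16 from 49787795 to 49790052 they were 8479 and 9112. On chromosome 1 from 220997362 to 221008460, a stretch of 11099 bp, they were 5614 and 10040. Each of these 3 had no CAMTA1-named peak and was present in 5 other lists. The regions on chromosomes 5 and 1 were in both lists labelled CAMTA1, both labelled YAP5SA and replicate 2 labelled TFE3, and in none labelled TAZ-CAMTA1 or YAP-TFE3.

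On chromosome 20 from 31167869 to 31173309, ranks of 6871 and 6778 were set against a lower peak at rank 47582 in CAMTA1-named replicate 2, and 6 other lists had a peak. On chromosome 9 from 13585762 to 13589883 the ranks were 9799 and 9434, 305396 bp from the nearest shared region. On chromosome 19 from 40445345 to 40448757 they were 8936 and 10086. On chromosome 7 from 142494049 to 142497174 they were 10151 and 6215. The last 3 had no CAMTA1-named peak and were present in 2, 2 and 3 other lists.

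The widest EV-only regions after these were long stretches, of which replicate 2 called 3 in more pieces than replicate 1. On chromosome 1 from 19711460 to 19727220, replicate 1 had 2 peaks and replicate 2 had 5, and CAMTA1-named replicate 2 had a lower peak at rank 45780. On chromosome 14 from 68905660 to 68918765 they had 2 and 3. On chromosome 2 from 198041288 to 198053115 they had 1 and 3, and on chromosome 5 from 36383695 to 36395501 they had 2 each. They were present in 3 to 5 other lists.

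The values at the limit show what the last members rest on. The last CAMTA1-only region, on chromosome 3 from 30636454 to 30636840, ranked 42840 and 36954, on 8 and 11 fragments, and was in no other list. A region on chromosome 5 from 169211083 to 169211442 fell just outside, since its peak in CAMTA1-named replicate 2 ranked 42849. The last EV-only region, on chromosome 10 from 114143421 to 114145035, ranked 42839 and 20657, on 15 and 17 fragments. On chromosome 9 from 95513774 to 95515040 the peak in EV-named replicate 2 ranked 42847, just outside.

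Presence in the 10 lists of the other constructs was not used to choose the sets. The sets differed in it, in a direction that held only with both CAMTA1-named libraries in use. CAMTA1-only regions were in a median of 4 other lists and EV-only regions in a median of 1. Of the CAMTA1-only regions 67 (6.91%) were in none and 284 (29.3%) in 5 or more, and of the EV-only regions 1768 (31.8%) were in none and 467 (8.40%) in 5 or more. Of all merged regions 27.98% were in none and 39.65% in 5 or more, with a median of 3 lists. CAMTA1-only regions were thus seldom without another list, and regions of either set in 5 or more lists were fewer than among all regions. None of either set was in all 10. The mean share found per list was 35.3% ± 26.7 (SD, n = 10 lists) for CAMTA1-only and 17.2% ± 11.7 for EV-only regions. As a mean number of other lists this was 3.53 and 1.72, against 3.88 for all merged regions. The mean of CAMTA1-only regions thus lay just below that of all regions, and that of EV-only regions far below it. The difference of 18.04 percentage points ± 22.4 (SD) was positive in 7 of 10 lists (exact two-sided sign-flip permutation p = 0.0371). Lists of 1 label share their construct, and with the 5 labels as units the p was 0.125 (exact permutation, smallest possible 0.0625). The difference reversed to -3.88 points (exact permutation p = 0.396) and -8.80 points (exact permutation p = 0.0371) without CAMTA1-named replicates 1 and 2. Its size also depended on how many peaks were kept. It was 7.17 points with 10000 peaks per list (exact permutation p = 0.0449) and 3.04 with each other list at its 5721 strongest peaks (exact permutation p = 0.00781). The difference was 18.2 within bands of equal rank (exact permutation p = 0.0332).

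The largest differences between the sets were in the lists of 2 labels. In the lists labelled YAP-TFE3 (YAP5SA in the file names), 84.1% and 60.8% of the CAMTA1-only regions had a peak, against 26.1% and 14.6% of the EV-only regions and 54.5% and 43.2% of all merged regions. In those labelled TAZ-CAMTA1 (TAZ4SA in the file names), the shares were 32.1% and 64.3% against 3.44% and 29.4%, and 27.1% and 51.4% of all regions. In these 4 lists CAMTA1-only regions thus lay above the share of all regions, by least in the first list labelled TAZ-CAMTA1, and EV-only regions lay below it. In the remaining 6 lists the differences were smaller and went both ways, and both sets lay below the share of all merged regions in each. The lists labelled CAMTA1 (TC in the file names) had 36.0% and 8.77% of the CAMTA1-only against 30.8% and 9.53% of the EV-only regions. They had 49.1% and 33.2% of all regions. Those labelled YAP5SA (TFE3 in the file names) had 15.6% and 23.5% against 17.1% and 9.82%, and 38.6% and 35.85% of all regions. Of those labelled TFE3 (YT in the file names), replicate 2 had 27.6% against 31.6%, and 47.2% of all regions. Replicate 1, a list of 5721 peaks, had 1 of 969 and 4 of 5560, and 8.01% of all regions. The first 4 differences ran from 28.7 to 58.1 points and the other 6 from -4.08 to 13.7. This grouping of the lists was made after the values were seen and carries no test.

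Within each of these 4 lists, the CAMTA1-only regions found there ranked higher in the median than the EV-only regions found there. In the lists labelled YAP-TFE3 the median ranks were 13727 against 35210 of 57505 peaks and 15779 against 27991 of 39653. In those labelled TAZ-CAMTA1 they were 11195 against 15278 of 21748 and 18828 against 29349 of 48372. The direction was the same in 4 of the other 6 lists, and the opposite in 2. Of the CAMTA1-only regions, 270 (27.9%) were in all 4 lists labelled YAP-TFE3 or TAZ-CAMTA1, against 94 (1.69%) of the EV-only regions and 25.2% of all merged regions. A peak in some of these 4 and in none of the other 6 was found for 332 (34.3%) of the CAMTA1-only and 790 (14.2%) of the EV-only regions, and for 12.01% of all. The reverse, some of the 6 and none of the 4, held for 50 (5.16%) and 1417 (25.5%), and for 9.82% of all. Among the 306 CAMTA1-only regions with no EV-named peak at any rank, the mean share was 58.7% in the 4 lists and 12.0% in the 6. It was 60.3% and 18.6% for all 969 CAMTA1-only regions, 17.1% and 15.5% for the 5113 EV-only regions with no CAMTA1-named peak, and 44.1% and 35.3% for all merged regions.

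The difference in presence depended on single libraries. Beside the reversal without either CAMTA1-named library, leaving out an EV-named library raised it. Without EV-named replicate 1 it was 26.05 (exact permutation p = 0.00195) and without EV-named replicate 2 it was 28.87 (exact permutation p = 0.00391). It lost its side of 0.05 without either list labelled TAZ-CAMTA1 or YAP-TFE3, without replicate 1 labelled CAMTA1 or without replicate 2 labelled YAP5SA, at differences of 13.6 to 19.5 (exact permutation p from 0.0586 to 0.0742). Without both lists labelled YAP-TFE3 it was 9.52 (exact permutation p = 0.148).

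**Figure D4:**
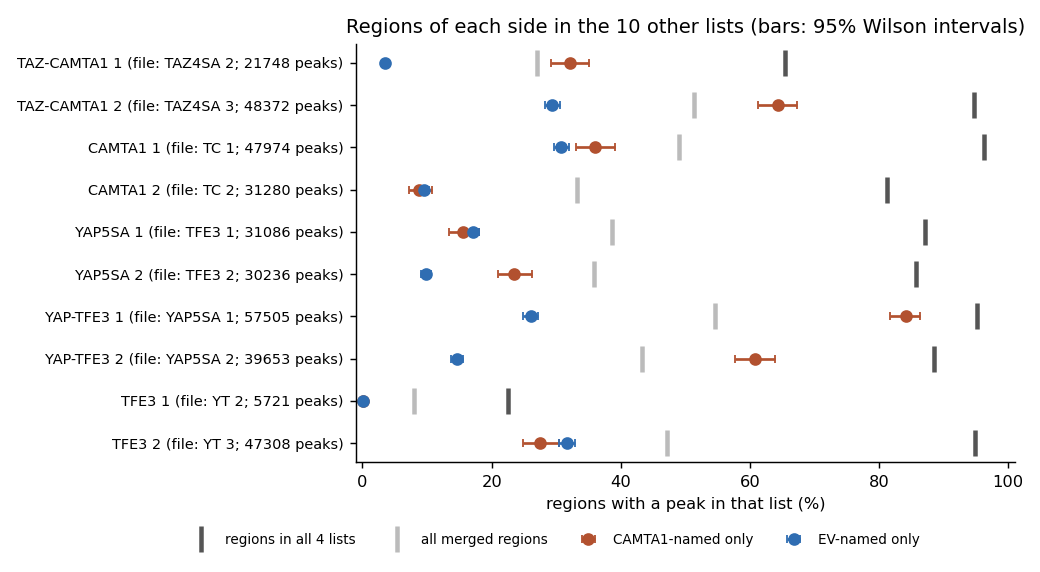
Share of regions with a peak (x axis, %) in each of the 10 other lists, given by label, construct in the file name and number of peaks. Red points are CAMTA1-only and blue points EV-only regions with 95% Wilson intervals, and ticks are regions in all 4 lists (dark) and all merged regions (light). Red lies far right of blue in the 4 lists labelled YAP-TFE3 or TAZ-CAMTA1, by 28.7 to 58.1 points.

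Both sets were spread over the genome, mostly as single regions, but a part lay close together. Another region of the same set lay within 2000 bp of 171 CAMTA1-only (17.65%) and 599 EV-only regions (10.8%). Within 10000 bp the numbers were 220 (22.7%) and 1312 (23.6%). Among regions of all 4 lists the shares were 16.1% and 39.1%. CAMTA1-only regions lay on all of chromosomes 1 to 22 and X, in 864 runs of neighbouring regions, of which 772 held a single region. EV-only regions formed 4675 runs, 3953 of them single, and 12 regions lay on sequences other than chromosomes 1 to 22 and X. The nearest region of all 4 lists was a median of 20978 bp from a CAMTA1-only region and 14937 bp from an EV-only region, and neighbouring regions of all 4 lists were a median of 16181 bp apart. More than 100000 bp separated 194 CAMTA1-only regions (20.02%) and 622 EV-only regions (11.2%) from a shared region, against 10.3% of the shared regions themselves. Within 10000 bp of an EV-only region lay 37 CAMTA1-only regions (3.82%), against 13.4% of the regions of all 4 lists and 14.7% of all regions outside the EV-only set.

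Some stretches collected many regions of a side. In bins of 1 Mb, the most CAMTA1-only regions were 7, on chromosome 19 between 43333944 and 43754444. They were 434 to 1515 bp wide and each was in 2 to 4 other lists. That bin held 7 of the 13 CAMTA1-only regions of the chromosome, beside 6 EV-only regions. Next came 6 on chromosome 3 between 45082527 and 45523043, in a bin with 2 EV-only regions. A further 5 lay on chromosome 13 between 42031395 and 42274897, in a bin with none. The most EV-only regions were 18, on chromosome 5 between 67068069 and 67956998. They were 1618 to 9456 bp wide, with weaker ranks from 11768 to 42240 and a median of 0 other lists, and the bin held no CAMTA1-only region. A further 17 lay on chromosome 15 between 68135235 and 68914245 and 16 on chromosome 3 between 176997836 and 177890745. The longest runs of CAMTA1-only regions without another region between them held 4, within 11216 bp on chromosome 18 from 26735217 and within 14958 bp on chromosome 4 from 55018165. Those of EV-only regions held 6, among them a run over 226027 bp on chromosome 5 from 75675444.

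The sets differed in their chromosomes. Per 100 merged regions, CAMTA1-only regions ran from 0.588 on chromosome 19 to 2.98 on chromosome 18, and EV-only regions from 7.86 on chromosome 6 to 13.7 on chromosome 20. The ratio of EV-only to CAMTA1-only regions was 260 to 13 on chromosome 19 and 9.79 on chromosome 20, and 3.43 on chromosome 4, 3.46 on chromosome 6 and 3.69 on chromosome 18. Regions found in a single list, which belong to neither set, gave each library its own value. On chromosome 19 they made up 1.97% and 2.32% in the CAMTA1-named lists and 3.71% and 4.75% in the EV-named lists, beside 1.34% of the CAMTA1-only and 4.68% of the EV-only regions. On chromosome 20 the shares were 2.77% and 2.84% against 4.45% and 4.58%, and on chromosome 4 they were 4.02% and 4.79% against 3.40% and 2.62%. The libraries of both sides did not overlap on 13 of 23 chromosomes (56.5%), and on 12 of these 13 the members differed in the same direction. The regions of a single list come from the same 4 lists and the same limit as the members, so this is a description and no independent support. With 2 libraries a side, a share of 0.333 of equally likely orders separates the sides fully, and no test was made. The shares of a set over its chromosomes depend on each other. The part of copy number or base composition was not tested either.

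**Figure D5:**
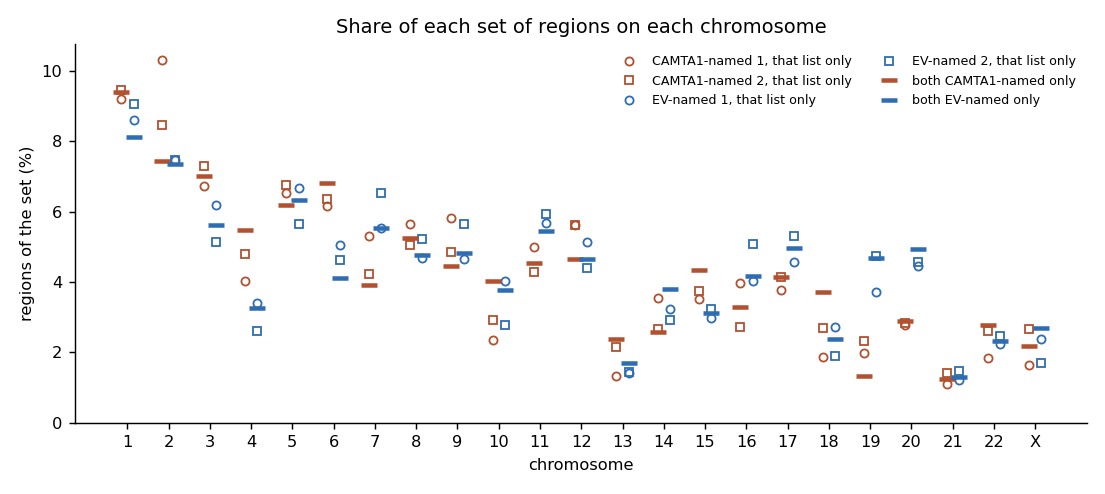
Share of each set of regions (y axis, %) on each chromosome (x axis). Dashes are the CAMTA1-only (red) and EV-only (blue) regions, and open symbols the regions found in a single list, circles for replicate 1 and squares for replicate 2. On chromosome 19 the red values lie between 1.34% and 2.32% and the blue ones between 3.71% and 4.75%.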

How the data were processed

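The study's methods give trimming with Atropos, alignment by BWA-MEM to the GRCh37/hg19 assembly, removal of multi-mapping reads and of greylist regions, and MACS2 in its paired-end mode. They describe pooling of replicates and a looser q limit, but each deposited list is of 1 replicate and none has a −log10 q under 1.30. The authors deposited for each peak its interval and summit, the enrichment as a ratio (fold over local background), and −log10 of the p-value and of the q-value. The labels' protocol names a Flag antibody, while their antibody field and the methods give H3K27ac. The 14 inputs were not analysed here.

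Peaks were ordered by −log10 p, ties by fold and then by position. Ranks compare peaks within a list. Overlaps needed 1 bp, and bins took regions by midpoint. A lower-ranked peak is a peak of the full list beyond the limit. Regions were named by rule: per side the 8 with the best rank in the weaker list, the 4 widest of the rest, the regions at the limit, the 3 bins of 1 Mb with most regions, and the longest runs. The chromosomes named were picked after their values were seen. Fragments at summits came from the fold, (fragments + 1) over (background + 1), and the Poisson p, and in each list 99.8% or more were whole within 0.05. Members, lists and rules were chosen with earlier results of these data known. Reference files of GRCh37 were not used here, so no gene is named and no sequence is shown. The 2 sides were chosen by the file names, and the other lists are named by their labels. Python 3.11.15, numpy 2.4.6, scipy 1.17.1 and pandas 2.3.3 were used, and the code was tested on simulated data.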

Additional observations from a re-analysis of the deposited data

How the results depend on the processing

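Values are given as CAMTA1-only, then EV-only, regions. Counts, widths and shares moved little when peaks were ordered by fold or limited to chromosomes 1 to 22 and X. With 20000 peaks kept, EV-only regions numbered 2301 and regions in all 4 lists 12581, median widths were 1665 and 3685 bp, and 96.6% and 80.1% had a lower-ranked peak of the other side. With 10000 kept, counts were 629 and 957 with 6564 in all 4 lists, widths 3163 and 5275 bp, and shares 99.5% and 99.6%. With all peaks, counts were 377 and 22666 and widths 675 and 1086 bp; no share could be given, since no peak was dropped. At a −log10 q of at least 5, counts were 210 and 9213, the CAMTA1-only width 1114 bp and the shares 74.3% and 45.2%. With 50% of a region covered, EV-only regions numbered 14219 and regions in all 4 lists 5229, shares were 44.9% and 1.59%, and the EV-only width was 3463 bp. With summit windows, CAMTA1-only regions numbered 4249, with a share of 25.7% and widths of 1366 and 1215 bp. Stitching within 1000 bp took the CAMTA1-only width to 1441 bp. Fewer peaks kept leave more peaks below the limit by construction; other causes were not tested.

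The difference in presence in the other lists was 7.17 points with 10000 peaks kept, 3.04 with the other lists at 5721 peaks each, and up to 30.1 with summit windows. With 5 labels it was 18.04 (exact permutation p = 0.125). Added after the data had been seen, leaving out both lists of a label took it to 14.6 (TAZ-CAMTA1), 22 (CAMTA1), 21.02 (YAP5SA) and 9.52 (YAP-TFE3), with exact permutation p from 0.0547 to 0.148, and to 23.1 without TFE3 (exact permutation p = 0.0312). Leaving out 1 other list gave 13.6 to 20.5.

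Leaving out each of the 4 libraries, CAMTA1-only regions numbered 1540 to 5354, EV-only regions 7050 to 16331 and regions in all remaining lists 20286 to 21531. Shares with a lower-ranked peak ran from 47.3% to 65.3% and from 4.90% to 11.2% (none could be given without CAMTA1-named replicate 2), and widths from 378 to 876 bp and from 852 to 2088 bp. The presence difference ran from -8.80 (without empty vector replicate 2, CAMTA1-named) and -3.88 (without replicate 1), both reversed, to 28.9. A side left with 1 list keeps peaks that its other list lacked.

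No paired analysis was possible because the comparison between libraries with the same replicate numbers is of counts of regions and comes from no test. The sign-flip test pairs the 2 sets within each of the other lists, not the libraries of the sides.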
